A study of Mus musculus with 6 samples.

Results

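The Th2 cytokine locus is the stretch of mouse chromosome 11 that holds the genes for interleukins 4, 13 and 5 (Il4, Il13 and Il5), with Kif3a on one side, Irf1 on the other, and Rad50 between Il13 and Il5. Open chromatin at this locus was taken from 6 lists of ATAC-seq peaks, 1 list for each library. ATAC-seq uses the transposase Tn5 to cut and tag DNA that is not packed away, so a peak marks accessible chromatin. All peaks between the lower end of Kif3a and the upper end of Irf1, with 20 kb added on either side, were taken (chr11:53547379-53798374, mm10, 251 kb). Overlapping or adjoining peaks of the libraries were merged into regions. This gave 32 regions of the 236017 found in the whole genome (0.0136%), named here E1 to E32 in order along the chromosome.

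The libraries came from wild-type naive CD4+ CD62L+ T cells of C57BL6/J mouse spleen that were cultured to become Th9, Th2 or Th17 cells. Per the methods, all cultures were activated with antibodies to CD3 and CD28. Th2 cultures also received IL-4, IL-2 and antibody to IFNγ. Th9 cultures received the same agents plus TGF-β1. Th17 cultures received IL-6, TGF-β1, IL-23 and IL-1β with antibodies to IFNγ, IL-4 and IL-2. Each of the 3 subsets had 2 libraries, labelled replicate 1 and replicate 3. All mice in the study were adults of either sex, and which animals gave which library was not stated, so a p-value measures the spread between these libraries, which may be technical. A bulk culture can hold cells of other fates, and fewer open cells and less opening in each cell cannot be told apart.

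Il4, Il13 and Il5 encode the cytokines that define Th2 cells, and all are silent in naive T cells. Their expression depends on enhancers spread over the locus. In textbook descriptions these include an enhancer in an intron of Il4, conserved sites between Il4 and Il13 and beyond the end of Il4, and a locus control region in the introns at the far end of Rad50. GATA3, the master factor of Th2 cells, and STAT6 and STAT5, which act downstream of IL-4 and IL-2, bind such sites. Rad50 itself encodes a protein of DNA break repair, Kif3a a kinesin motor subunit, and Irf1 an interferon-induced transcription factor. Which region corresponds to which of the sites named in the literature was not tested.

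Sequences are given for the regions on which the comparison turns. Each is the 300 bases at the centre of the stretch common to the libraries that called the region, read from the plus strand of GRCm38.p6, the assembly behind mm10. Capitals mark matches, on either strand, to GATAA (bound by GATA factors), TTCNNNGAA and the same arms set one base farther apart (spacings bound by STAT factors) and TGANTCA (bound by AP-1 and BATF dimers). By mean strength over the calling libraries, E10 is the strongest region in Il4 (chr11:53617541-53617840), E12 the strongest between Il4 and Il13 (chr11:53627872-53628171), and E19 the strongest in the Rad50 introns near Il13 (chr11:53655063-53655362). E16 (chr11:53636131-53636430), the strong region upstream of Il13, and E20 (chr11:53656791-53657090), the neighbour of E19 that Th17 cells also called, were added after their values had been seen.
E10, intron 2 of Il4: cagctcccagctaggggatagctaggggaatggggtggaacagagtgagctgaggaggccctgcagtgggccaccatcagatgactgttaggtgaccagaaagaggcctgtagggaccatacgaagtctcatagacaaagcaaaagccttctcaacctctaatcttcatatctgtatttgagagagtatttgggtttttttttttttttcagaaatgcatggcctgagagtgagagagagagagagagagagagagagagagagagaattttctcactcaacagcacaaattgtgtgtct
E12, between Il4 and Il13: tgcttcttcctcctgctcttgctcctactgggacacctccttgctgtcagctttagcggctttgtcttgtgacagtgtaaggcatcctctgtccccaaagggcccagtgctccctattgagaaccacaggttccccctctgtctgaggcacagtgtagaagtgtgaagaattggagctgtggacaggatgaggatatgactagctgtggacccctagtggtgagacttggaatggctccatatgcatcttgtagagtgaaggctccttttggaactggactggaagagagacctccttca
E16, upstream of Il13: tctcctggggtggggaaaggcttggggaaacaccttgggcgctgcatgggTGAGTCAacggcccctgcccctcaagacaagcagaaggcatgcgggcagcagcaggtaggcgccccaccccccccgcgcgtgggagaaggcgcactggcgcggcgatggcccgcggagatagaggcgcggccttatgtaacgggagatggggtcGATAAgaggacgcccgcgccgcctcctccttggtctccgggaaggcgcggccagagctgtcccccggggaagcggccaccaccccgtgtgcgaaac
E19, intron 22 of Rad50: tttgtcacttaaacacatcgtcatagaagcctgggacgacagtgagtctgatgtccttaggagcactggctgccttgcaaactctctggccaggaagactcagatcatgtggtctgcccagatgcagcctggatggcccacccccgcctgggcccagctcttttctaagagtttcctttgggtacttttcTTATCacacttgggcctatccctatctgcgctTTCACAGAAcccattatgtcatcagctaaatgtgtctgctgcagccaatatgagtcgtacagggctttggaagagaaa
E20, intron 21 of Rad50: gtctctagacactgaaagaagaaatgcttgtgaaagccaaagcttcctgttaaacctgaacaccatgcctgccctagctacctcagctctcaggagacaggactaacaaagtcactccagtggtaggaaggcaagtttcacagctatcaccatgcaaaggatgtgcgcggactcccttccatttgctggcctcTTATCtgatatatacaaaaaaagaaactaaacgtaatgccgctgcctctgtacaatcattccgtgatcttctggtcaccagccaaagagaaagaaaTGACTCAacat

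The 250 bases before the starts of the 3 cytokine genes follow, 5′ to 3′ on the strand of the gene, from RefSeq on the same build. They are shown because the starts of these genes were seldom inside a peak. They lie at chr11:53618666-53618915 (Il4, minus strand), chr11:53634703-53634952 (Il13, minus strand) and chr11:53720544-53720793 (Il5, plus strand).
Il4 promoter: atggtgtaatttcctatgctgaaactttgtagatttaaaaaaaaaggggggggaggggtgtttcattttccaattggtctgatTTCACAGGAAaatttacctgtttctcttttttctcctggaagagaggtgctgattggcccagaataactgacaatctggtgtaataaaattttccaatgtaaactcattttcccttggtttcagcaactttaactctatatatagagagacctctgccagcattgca
Il13 promoter: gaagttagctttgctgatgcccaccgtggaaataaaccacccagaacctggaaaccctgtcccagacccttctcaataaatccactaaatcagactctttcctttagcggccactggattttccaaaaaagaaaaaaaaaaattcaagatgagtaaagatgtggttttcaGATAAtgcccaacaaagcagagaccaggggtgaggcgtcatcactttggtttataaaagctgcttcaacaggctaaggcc
Il5 promoter: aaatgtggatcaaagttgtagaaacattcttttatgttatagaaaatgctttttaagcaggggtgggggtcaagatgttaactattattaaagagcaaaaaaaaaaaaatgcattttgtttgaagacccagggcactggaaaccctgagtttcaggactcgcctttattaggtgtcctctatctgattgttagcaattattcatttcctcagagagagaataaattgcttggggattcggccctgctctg

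E10 and E12 held no match to the marked words in these windows. E16 held 1 GATAA and 1 TGANTCA match, E19 held 1 GATAA and 1 TTCNNNGAA match, and E20 held 1 GATAA and 1 TGANTCA match. The Il4 promoter held 1 match to the wider STAT spacing, the Il13 promoter 1 GATAA match, and the Il5 promoter none. No match says only that these letters are not in the window shown.

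Peak calls set Th17 apart from Th9 and Th2 (shown in the map of peaks by library). Th9 replicates 1 and 3 had 24 and 28 peaks in the locus, Th2 replicates 1 and 3 had 23 and 27, and Th17 replicates 1 and 3 had 12 and 11. Every library called 10 of the 32 regions, a pattern held by 21.4% of all regions. A further 8 were called in both Th9 and both Th2 libraries and in neither Th17 library, a pattern of 2.0% of all regions. E15 was called in both Th2 libraries only (2.87% of all regions had that pattern) and E23 in both Th9 libraries only (1.31%). No region was called in both Th17 libraries only, a pattern of 1.7% of all regions, which at 32 regions is too rare for a count of 0 to say anything. Of the rest, 7 had mixed calls and 5 were called in a single library, against 37.2% of all regions. Those 5 were all in replicate 3 libraries: E1 and E17 in Th9, E3 and E4 in Th2, and E29 in Th17.

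**Figure D1:**
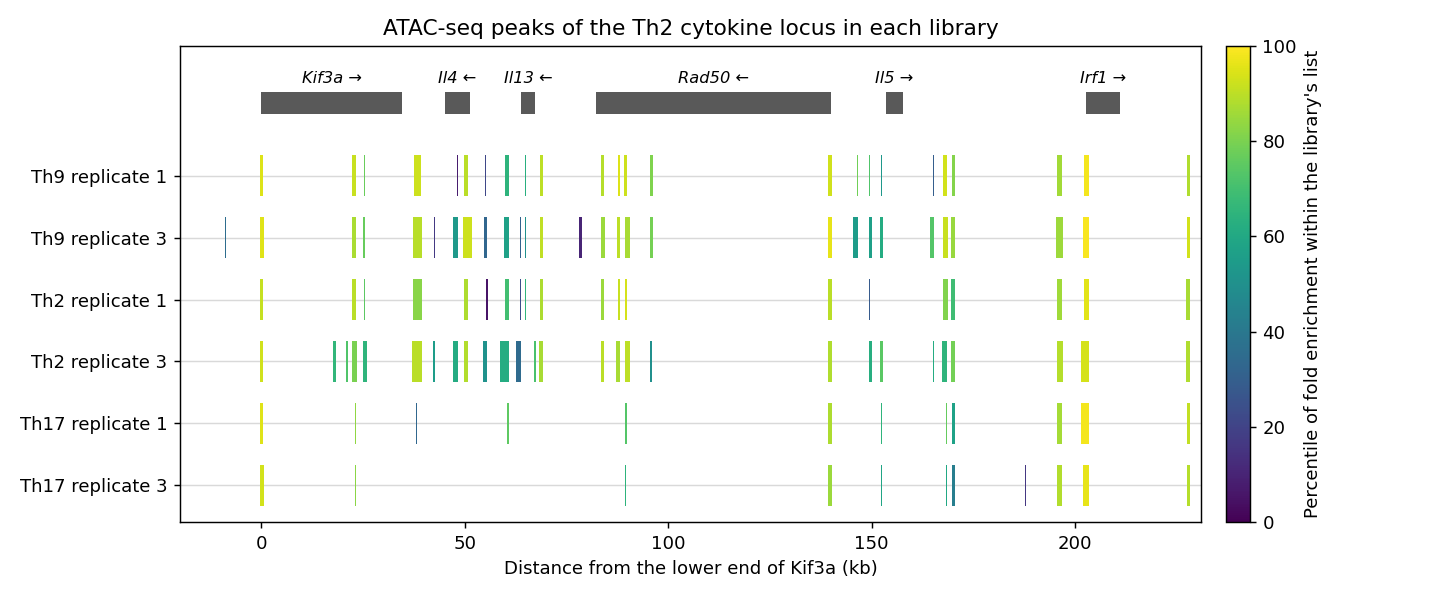
Peaks along the locus in each library, with distance from the lower end of Kif3a in kb on the x axis, gene bodies as grey bars with an arrow for the direction of transcription, and colour for the percentile of a peak's fold enrichment within its own list. The Th17 rows, with 12 and 11 peaks, are nearly empty from Il4 through the Rad50 introns, and the starts of Kif3a, Rad50 and Irf1 carry a peak in all 6 rows.

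A region that a list does not hold is below that list's detection limit, which is not the same as closed. Among regions called in all 4 Th9 and Th2 libraries, 8 of 20 in the locus (40%) had no Th17 call, against 7.84% of 60373 in the genome. The background coverage of a list, an estimate of the mean number of fragments over a base recovered from its fold and p-values, was 14.4 and 17.7 for Th17, 5.65 and 12.1 for Th9, and 11.2 and 15.2 for Th2. The part of depth in the missing calls was not tested. The lowest fold enrichment that any peak of the Th17 lists had was 1.76 and 1.71.

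Each Th9 and Th2 library had more of the locus under peaks than either Th17 library (shown in the bars of covered length). It was 17.1 and 26.8 kb for Th9, 17.2 and 29.2 kb for Th2, and 9.06 and 7.9 kb for Th17 (replicates 1 and 3). The 4 Th9 and Th2 libraries averaged 22.5 ± 6.34 kb and the Th17 libraries 8.48 ± 0.821 kb (SD, n = 4 and n = 2), a ratio of 2.66. The groups did not overlap, and a two-sided exact permutation test of the difference of 14.1 kb gave p = 0.133, where the smallest p that 15 arrangements allow is 0.0667, so 0.05 was out of reach. The replicates of Th9 and of Th2 differed from each other by more than replicate 1 of either did from replicate 1 of Th17. Within each replicate number, Th9 and Th2 exceeded Th17.

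The covered share of the locus was also divided by the covered share of chromosomes 1 to 19 and X in the same list. This scales for list length but does not remove its part. In Th9 and Th2 the longer list had the lower ratio, and in Th17 the higher. The locus was then covered 1.76 and 3.49 times as densely as the genome in Th9, 1.54 and 2.83 times in Th2, and 0.992 and 0.908 times in Th17. The means were 2.4 ± 0.917 and 0.95 ± 0.0594 (SD, n = 4 and n = 2), again without overlap (exact permutation p = 0.133, two-sided). In Th17 cells the locus thus carried about the peak density of the genome as a whole, and in the other subsets more.

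**Figure D2:**
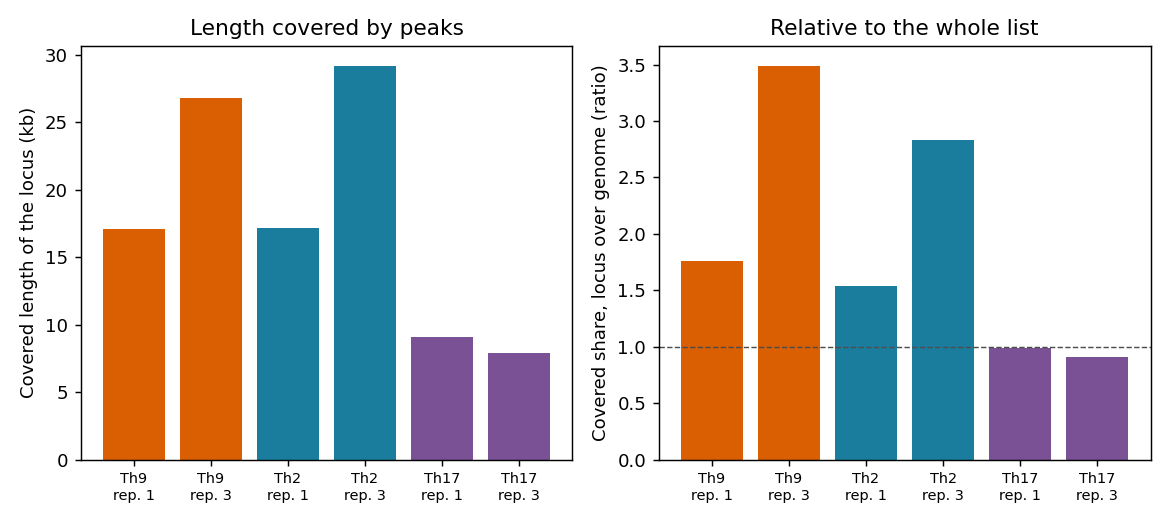
Bars give, for each library, the length of the locus covered by its peaks in kb (left) and the covered share of the locus divided by the covered share of chromosomes 1 to 19 and X (right, dashed line at 1). The Th17 bars are the lowest in both panels, at 9.06 and 7.9 kb and at 0.992 and 0.908, and replicate 3 stands above replicate 1 in Th9 and Th2.

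Peak strength is given below as the percentile of a peak's fold enrichment over background within its own list, so that 80 means stronger than 80% of that library's peaks. Values are ordered as replicate 1, then replicate 3. Folds from different lists are not compared directly except in the limma fit.

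In Il4 the strongest region was E10 (chr11:53617068-53619060). Its percentile was 89.5 and 92.3 for Th9 and 87.8 and 88.3 for Th2, and no Th17 library called it. The stretch common to the 4 libraries covered exon 2 and part of intron 2, not the start of the gene. The annotated start of the longest Il4 transcript lay inside a peak only in Th9 replicate 3, whose peak was 1993 bp wide while the other 3 measured 1064 to 1134 bp. In those, the edge of the peak lay 388 to 456 bp from the start. RefSeq also lists an internal Il4 start within the common stretch.

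E9, farther along intron 2, was weaker and less regular. It had percentiles of 8.13 and 53.7 for Th9 and 61.2 for Th2 replicate 3, with no call in Th2 replicate 1 or in Th17. Its widths were 233, 1211 and 1253 bp, the larger values both in replicate 3 libraries.

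Beyond the end of Il4 lay E7 (chr11:53604492-53606876), 11793 bp downstream of the Il4 start. Its percentile was 92.2 and 89.3 for Th9 and 82.1 and 89.6 for Th2. Th17 replicate 1 called it at the 32.9 percentile and Th17 replicate 3 did not. The Th9 and Th2 peaks were 1691 to 2336 bp wide and the Th17 peak 275 bp. E8, nearer Il4, was called only in the replicate 3 libraries of Th9 and Th2 (16.7 and 55.2).

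Between Il4 and Il13, E12 (chr11:53626022-53628291) was of middle strength, with percentiles of 64.6 and 57.2 for Th9 and 69.7 and 61.4 for Th2. Th17 replicate 1 also called it, at 75.2, the highest percentile of the 5 calls. That peak was 378 bp wide against 942 to 2270 bp for Th9 and Th2. The other regions between these genes were weak. E11 had 21.4, 32.8, 5.35 and 50.6 in the 4 Th9 and Th2 libraries, whose peaks shared no common stretch, and E13 had 31.6, 24.1 and 34.7 in 3 of them.

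At Il13, the start of the gene lay inside a peak in both Th2 libraries and in no other. This region, E15 (chr11:53634463-53634775), was narrow (230 and 313 bp) and had percentiles of 51.5 and 71.1. In both Th9 libraries the nearest peak edge was 1145 bp from the start, and in Th17 it was 6492 and 22023 bp away. Inside the gene, E14 over exon 3 had 63.2 and 50.0 for Th9 and 65.4 for Th2 replicate 1.

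E16 (chr11:53635672-53636729), whose near edge was 970 bp upstream of the Il13 start, was among the strongest regions that Th17 cells lacked. Its percentile was 90.2 and 90.4 for Th9 and 87.8 and 86.8 for Th2, with widths of 802 to 1043 bp. The window printed above held 28 CpG dinucleotides and 69.3% G and C, close to the windows at the starts of Kif3a (32 CpG) and Rad50 (29 CpG). Windows of the same kind at 117809 regions of the genome had a median of 3 CpG, and 5.46% had 28 or more. No annotated start of the 6 genes lies in E16.

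The introns at the far end of Rad50 held 4 regions. E18 in intron 24 (chr11:53650817-53651733) had percentiles of 89.0 and 84.8 for Th9 and 84.8 and 89.5 for Th2. E19 around intron 22 (chr11:53654539-53655562) had 94.7 and 90.2 for Th9 and 91.7 and 86.8 for Th2. Neither was called in Th17.

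E20 in intron 21 (chr11:53656615-53657994), the next region along, was the only one of the 4 that Th17 cells called. It had percentiles of 92.5 and 86.8 for Th9, 93.4 and 89.9 for Th2, and 73.4 and 64.6 for Th17. Th9 and Th2 overlapped, and both Th17 values lay below them. Widths were 584 and 1331 bp for Th9, 503 and 1263 bp for Th2, and 386 and 402 bp for Th17. The Th17 cells thus had 1 of the 4 Rad50 intron regions, at lower strength.

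E21, also in intron 21 (chr11:53662881-53663661), was stronger in Th9 than in Th2 libraries. Its percentile was 80.8 and 79.1 for Th9, 15 and 49.7 for Th2, and it was not called in Th17. E23, 5569 bp upstream of the Rad50 start, was called in Th9 only, at 78.4 and 55.0. Neither difference between Th9 and Th2 passed when regions called in at least 2 libraries were fitted (limma, adjusted p = 0.0938 for E21 and 0.0981 for E23). That fit called 0 of 148283 regions between Th9 and Th2, so not passing there does not set these regions apart. In it, an uncalled library was set to the lowest fold of its own list, which for E23 applied to both Th2 libraries.

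**Figure D3:**
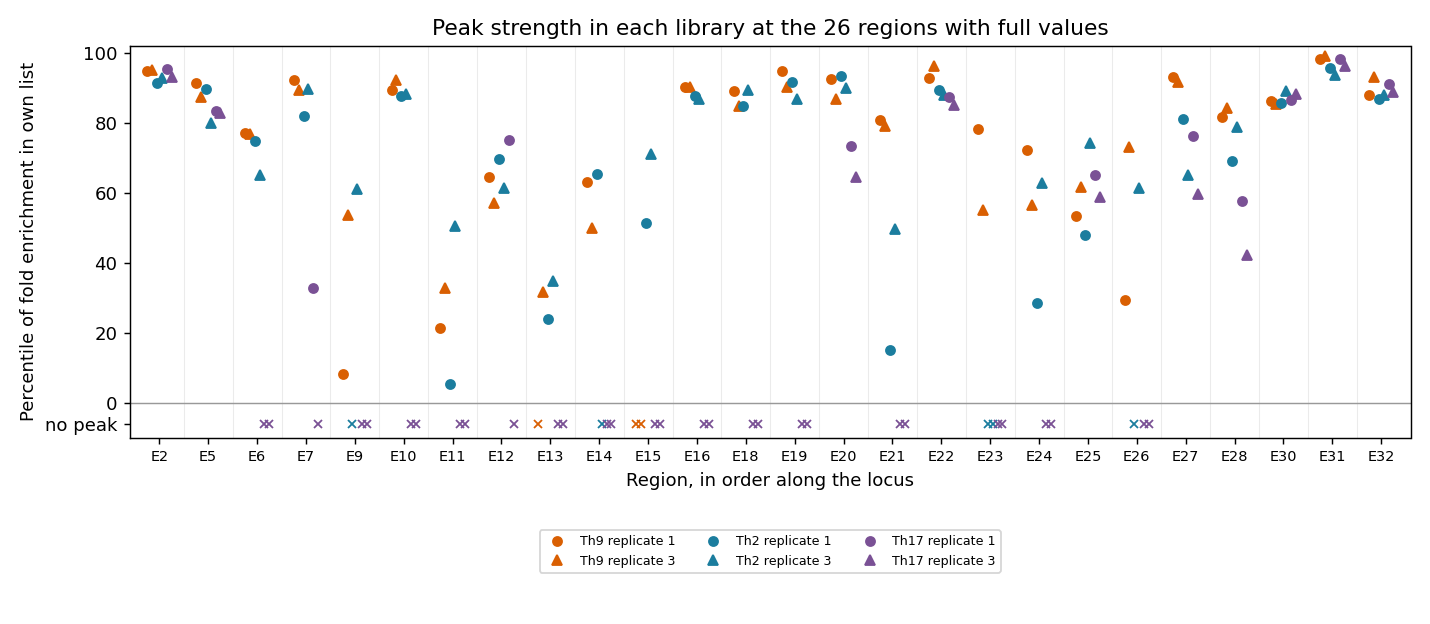
Percentile of fold enrichment within the library's own list (y axis) for the 26 regions called in at least 4 libraries or in both libraries of a subset, in order along the locus, with colour for the subset, circles for replicate 1, triangles for replicate 3 and crosses for no peak. The Th17 points are missing or lowest from E6 to E21, apart from E12, and mix with the others at E2, E30, E31 and E32.

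At Il5, no library had the start of the gene inside a peak. The nearest region was E25 (chr11:53719475-53720249), 545 bp upstream at its closest, and it was called in all 6 libraries. E25 overlapped the stretch used for promoter calls below, from 1000 bp before to 100 bp after a start. Its percentiles of 53.4 and 61.6 for Th9, 48.1 and 74.4 for Th2, and 65.0 and 58.7 for Th17 overlapped between subsets. E24, 3309 bp upstream of the Il5 start, had 72.3 and 56.4 for Th9 and 28.4 and 62.8 for Th2 and no Th17 call. Il5 thus differed from Il4 and Il13 in that its closest region showed no separation of the subsets by strength.

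Past the end of Il5 lay a pair of regions that all libraries called but with unequal strength. E27 (chr11:53734540-53736036) had percentiles of 93.2 and 91.6 for Th9, 81.1 and 65.2 for Th2, and 76.3 and 59.8 for Th17, so Th9 stood above both others and Th2 and Th17 overlapped. E28 (chr11:53736793-53737864) had 81.6 and 84.4 for Th9, 69.0 and 78.9 for Th2, and 57.7 and 42.2 for Th17. At E28 the order Th9, Th2, Th17 held without overlap in 2 libraries each. Neither step of that order passed in the limma fit below. The log2 difference was 0.38 for Th9 minus Th2 (95% interval -0.06 to 0.83, limma adjusted p = 0.366). For Th2 minus Th17 it was 0.43 (-0.02 to 0.87, limma adjusted p = 0.291). E26, 11034 bp downstream of the Il5 start, was called in both Th9 libraries (29.3 and 73.2) and Th2 replicate 3 (61.4). Regions of a single library ranged from the 10.4 percentile at E17 to 72.6 at E4.

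The flanking genes served as a reference within the locus. The starts of Kif3a, Rad50 and Irf1 lay inside a peak in all 6 libraries. The Irf1 start, E31, was the strongest region of the locus, with percentiles of 98.4 and 99.0 for Th9, 95.6 and 93.6 for Th2, and 98.4 and 96.4 for Th17. The Kif3a start, E2, had 94.8 and 95, 91.3 and 92.9, and 95.3 and 93.2 in the same order. Neither start was lower in Th17 than in Th2. The Rad50 start, E22, had 92.9 and 96.2, 89.5 and 88.1, and 87.5 and 85.0.

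Upstream of Irf1, E30 varied little, from 85.3 to 89.0 over the 6 libraries, and E32 beyond Irf1 ranged from 86.8 to 93.2. Within Kif3a, E5 at exon 10 had 91.5 and 87.4 for Th9, 89.7 and 80 for Th2, and 83.3 and 82.8 for Th17. E6, whose stretch common to the calling libraries lay in intron 10 of Kif3a, had 77.0 and 76.7 for Th9. It had 74.8 and 65.1 for Th2 and no Th17 call. The 8 regions that every Th9 and Th2 library called, and no Th17 library, thus ran from E6 in the body of Kif3a to E24 upstream of Il5.

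Strength could be tested where all 6 libraries had a peak. The log2 fold enrichment of the 50493 such regions of the genome was quantile normalized and fitted with limma, with p-values adjusted over all of them by the Benjamini-Hochberg method, and 10 regions of the locus were in the fit. The 3 comparisons share libraries, so their calls are not independent. The 10 regions leave out every region that a Th17 library did not call.

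Between Th2 and Th17, E20 alone passed. Its normalized log2 fold enrichment was 1.02 higher in Th2 (95% interval 0.63 to 1.41, limma adjusted p = 0.00237). That is 1 of 10 regions higher, against 5.04% of all fitted regions, and 0 of 10 lower, against 2.4%. At an unadjusted p under 0.05, limma had 1 region lower, the Irf1 start E31 (log2 difference -0.49, adjusted p = 0.114). Without Th17 replicate 3 the difference at E20 was 1.00 and just missed the threshold (adjusted p = 0.0509).

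Between Th9 and Th17, 3 of 10 regions were higher in Th9, against 3.11% of all fitted regions, and 0 were lower by limma, against 2.9% (0 at an unadjusted p under 0.05 as well). They were E27 (log2 difference 1.14, interval 0.72 to 1.55, adjusted p = 0.00278), E20 (0.91, 0.52 to 1.30, adjusted p = 0.00713) and E28 (0.81, 0.36 to 1.25, adjusted p = 0.0312). The Rad50 start E22 had 0.68 with adjusted p = 0.0574, and 0.0368 with the replicate number as a block. Without Th17 replicate 3 the differences were 1.02, 0.89 and 0.78 and none passed (adjusted p = 0.0659, 0.0881 and 0.25). Without Th17 replicate 1, E20 (0.0668) and E28 (0.165) missed the threshold, as did E20 without Th9 replicate 1 (0.0582) and E28 without Th9 replicate 3 (0.178).

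Between Th9 and Th2, 2 of 10 regions were higher in Th9, against 1.01% of all fitted regions, and 0 were lower by limma, against 2.18% (0 at an unadjusted p under 0.05). E27 was higher by 1.04 (0.63 to 1.46, adjusted p = 0.0111) and E31 by 0.71 (0.34 to 1.08, adjusted p = 0.0376). The call at E31 was lost whichever of the 6 libraries was left out (adjusted p from 0.0566 to 0.207). The call at E27 was lost without Th9 replicate 3 (limma adjusted p = 0.0755), on the logit of the percentile (0.17) and when regions called in at least 2 libraries entered (0.0872). At E20 Th9 and Th2 were not shown to differ (log2 difference -0.11, interval -0.50 to 0.28).

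**Figure D4:**
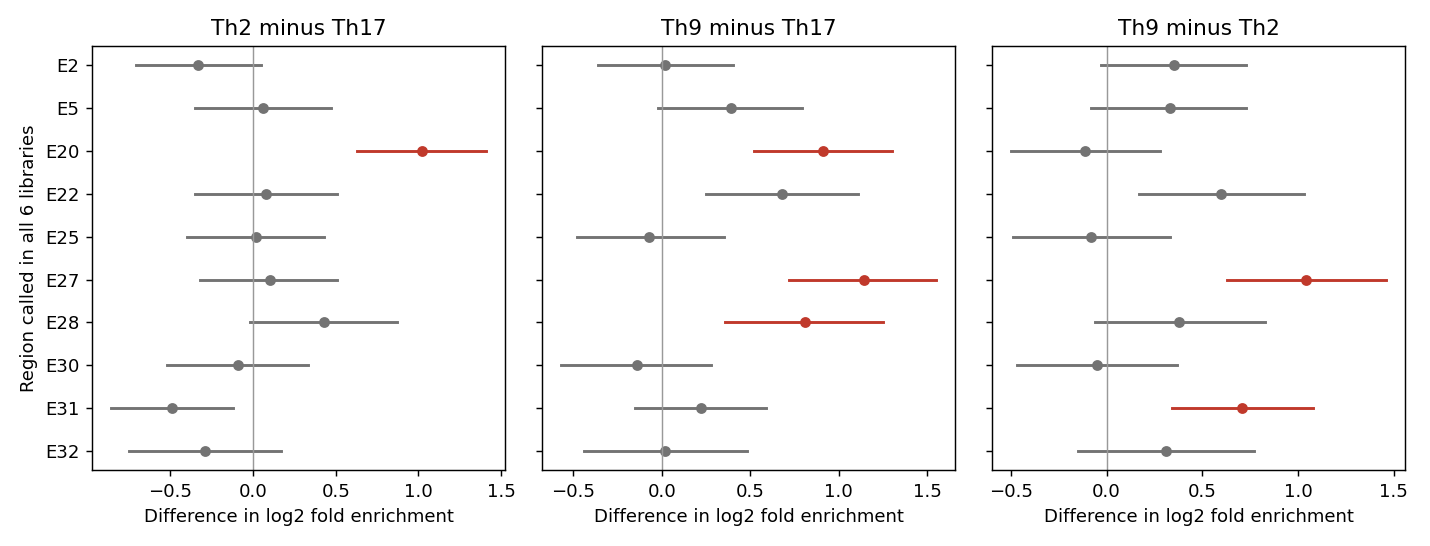
Differences in quantile-normalized log2 fold enrichment with 95% intervals from limma for the 10 regions called in all 6 libraries, in 3 panels for Th2 minus Th17, Th9 minus Th17 and Th9 minus Th2, with red for an adjusted p under 0.05. E20 lies at 1.02 and 0.91 against Th17 and at -0.11 between Th9 and Th2, and E27 lies at 1.14 and 1.04 in the panels with Th9.

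The median log2 difference over the 10 regions was 0.038 for Th2 minus Th17, 0.30 for Th9 minus Th17 and 0.34 for Th9 minus Th2. Over all fitted regions it was -0.032, -0.0012 and 0.015. When regions called in at least 2 libraries entered, with an uncalled library set to the lowest fold of its own list, 27 regions of the locus were fitted. Th2 was then higher than Th17 at E7, E10, E16, E18, E19 and E20 (3.17% of all 148283 regions were called in that direction). Th9 was higher than Th17 at those and at E6, E21 and E27 (1.49% of all regions). At E19 the log2 difference was 1.49 for Th2 and 1.86 for Th9. Both Th17 values there were the lowest folds put in, so neither is a measured difference. A region without a Th17 call enters that fit only through the libraries where it is high, so these calls describe the same pattern as the peak calls and add no separate support.

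Width was a further measure of regions that both kinds of cells called. At E5 in Kif3a, peaks were 1066 and 1042 bp wide for Th9, 1136 and 1377 bp for Th2, and 321 and 319 bp for Th17, a ratio of means of 3.61. At E27 they were 1119 and 1198, 1135 and 1468, and 462 and 461 bp, a ratio of 2.67. At both regions every Th9 and Th2 peak was over 1000 bp wide and no Th17 peak exceeded 462 bp. Of the 10 regions called in all 6 libraries, 4 (40%) were narrower in both Th17 libraries than in any other, against 13.2% of the 50493. These were E5, E20, E22 and E27, of which E22 differed little (ratio 1.06). The Kif3a start E2 was wider in Th17, with 884 and 954 bp against 708 to 873 bp.

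**Figure D5:**
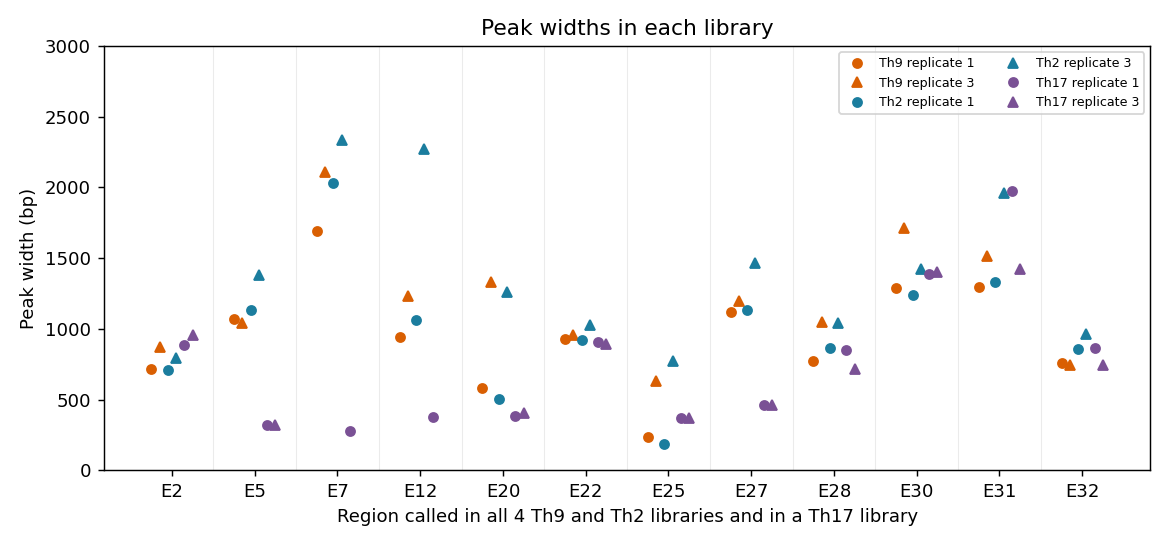
Peak width in bp for the 12 regions called in at least 1 Th17 library and in all 4 of the others, with colour for the subset, circles for replicate 1 and triangles for replicate 3. The Th17 peaks are the narrowest at E5, E7, E12, E20, E22 and E27, the widest at E2, and overlap with the others at the remaining 5 regions.

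The words searched are common, so their presence was set beside all windows of the same kind. GATAA on either strand was in 9 of the 26 windows of the locus and in 23.9% of the 117809 windows of the genome. The 26 include E11, whose peaks shared no common stretch and whose window was centred between the edges of peaks that did not overlap. TTCNNNGAA was in 5 (8.87% of the genome's windows), the wider STAT spacing in 3 (6.36%), TGANTCA in 6 (14.8%) and GGAAA, a core bound by NFAT factors, in 16 (53.7%). Among the 8 regions called in Th9 and Th2 and not in Th17, 5 held GATAA and 3 held TTCNNNGAA. The wider STAT spacing was in 1 of these 8, TGANTCA in 2 and GGAAA in 5. Among the 10 called in all 6 libraries the counts, in the same order of words, were 2, 1, 0, 3 and 7. These are counts of letters in short windows and no test was made of them. Over 250 bases before the starts of 32851 RefSeq transcripts, GATAA was in 22.6% and the wider STAT spacing in 5.85%.

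Promoter calls at marker genes were set beside the labels. The Il17f promoter was called in both Th17 libraries and no other. Il17a was called in both Th17 libraries (81.4 and 69.5) and also in Th2 replicate 3 (36.1). The Il9 promoter was called in both Th9 libraries (88.6 and 90.7), in both Th2 libraries at lower percentiles (37.1 and 44.4), and in neither Th17 library. The promoter of Gata3 was called in all 6 libraries, so a peak there did not set the subsets apart. Promoters of 4 of 5 general T helper genes were called in all 6 libraries, the exception being Cd4, which 4 libraries called. None of 3 myeloid genes was called in any library. Cd8a, a defining gene of CD8 T cells, was called in no library, and Cd8b1 in all 6.

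Promoters of a list of pathway genes, not all of which act on the locus, were set beside all promoters. The list held 28 genes for receptors, secreted proteins, signalling proteins and factors linked to the Th2 pathway. Of these, 25 had a promoter peak in all 6 libraries, against 59.2% of 21755 protein-coding genes. Il10, which encodes a regulatory cytokine, and Tbx21, which encodes the Th1 factor T-bet, were called in both Th9 and both Th2 libraries and not in Th17 (0.855% of protein-coding genes), the latter at low percentiles (43.9 and 15.3 for Th9, 3.63 and 4.73 for Th2). Il1rl1, which encodes the IL-33 receptor, was called in Th2 replicate 3 only. Of the 25, limma placed 2 higher and 1 lower in Th2 than in Th17 (5.04% and 2.4% of all fitted regions), 2 higher in Th9 than in Th17 (3.11%) and 1 higher in Th9 than in Th2 (1.01%). Ccr8, a chemokine receptor of Th2 cells, was higher than in Th17 by 1.6 in Th2 (adjusted p = 6.13e-05) and by 1.57 in Th9 (adjusted p = 0.000217). Batf, an AP-1 family factor, was lower in Th2 than in Th17 (log2 difference -0.67, adjusted p = 0.0305). The promoters of Stat6 and Il4ra, which carry the IL-4 signal, did not pass in any comparison.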

How the data were processed

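Peak lists of 6 ATAC-seq libraries were analysed. The authors trimmed reads with Trim Galore 0.4.3, aligned them to mm10 with bowtie2, removed duplicates with Picard and called broad peaks per library with MACS2 2.1.0 in paired-fragment mode without local background. Each position was thus judged against a single genome-wide background. A shift for Tn5 cuts was not given in the sources used here.

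The deposited lists give a display score (not used), the fold enrichment over background (a ratio) and −log10 p-values and q-values. Fold enrichment was the measure of strength, and the deposited −log10 p served in alternatives. Depth was recovered from fold and p of flat peaks, whose background follows a Poisson model. It was 5.65 to 17.7 fragments per base, from lists of 100317 to 142213 peaks.

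Here, peaks were joined, with a call at 1 bp of overlap, and placed on GENCODE M21 genes by the longest transcript. Promoters ran from 1000 bp before to 100 bp after a start. Full values were given for regions called in at least 4 libraries or in both of a subset. Python 3.11.15, scipy 1.17.1 and limma 3.58.1 (trend, prior from all regions) were used and tested on simulated data. Alternatives changed the peak threshold, list length, overlap, bins, flanks, normalization, imputation, trend, replicate block and libraries. A lowest fold of 2.2 was added after the data had been seen. Members and lists were chosen with earlier results of these data known. Fitted regions were called in all 6 libraries. Results for 2 marker genes are not reported here.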

Additional observations from a re-analysis of the deposited data

How the results depend on the processing

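The larger covering in Th9 and Th2 kept its direction under every alternative run, from 7.03 to 15.9 kb and from 1.09 to 2.27 in relative covering. Without one library it was 11.9 to 15.9 kb and 1.09 to 1.74. The 10 regions called in all 6 libraries became 5 at a fold of at least 4, 4 in the top 20000 peaks, 6 when 50% of a region had to be covered, and 16 in 1 kb bins. The 8 regions called in Th9 and Th2 and not in Th17 became 5 in lists of equal length, 4 in the top 20000 peaks and 17 in 1 kb bins. These choices remove peaks or split regions by construction. The equal length was that of the shortest list, 100317 peaks, which was Th17 replicate 3. Part of the 8 regions thus rested on weaker peaks of the longer lists.

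In limma, the count between Th2 and Th17 (1) was 6 when regions called in at least 2 libraries entered, and 0 to 1 without one library. Between Th9 and Th17 (3) it was 9 in that fit, 0 on the logit of the percentile (4 at an unadjusted p under 0.05) and 0 to 4 without one library. Between Th9 and Th2 (2) it was 0 with at least 2 libraries (7 unadjusted, and 0 in the whole genome), 0 on the logit (3 unadjusted), 1 without the trend and 0 to 2 without one library. In the counts of 0 without Th17 replicate 3, 2 regions passed unadjusted between Th2 and Th17 and 4 between Th9 and Th17, and without Th9 replicate 3, 2 between Th9 and Th2. The cause was not tested. In the fit of regions called in at least 2 libraries, a Th17 library without a call was set to the lowest fold of its list. The counts of 6 and 9 there largely repeat the peak calls and add no separate support. Over the genome, 3.17% and 1.49% of 148283 regions were called higher in Th2 and in Th9 than in Th17. Where a subset kept 1 library, that library was assumed to vary like the others. None of the 6 calls changed direction. Regions that did not pass could change sign, as at E27 between Th2 and Th17 (0.10, and -0.06 without Th2 replicate 1). Without normalization the median over all regions was 0.18 between Th9 and Th17, and 2528 regions were higher and 478 lower, against 1572 and 1462. Between Th2 and Th17 it was 3432 and 431, against 2546 and 1210. The locus had 4 and 1 calls, all higher.

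Deviations of libraries with the same replicate number correlated at r = 0.207 between Th9 and Th2, and at 0.00984 and 0.000962 between each of them and Th17. Not every pair was above 0.1, so the numbers were not used as pairs. With the replicate block the difference in covered length was 14.1 kb (exact permutation p = 0.111 over 9 arrangements) and the counts were 1, 4 and 2, the added region being E22. The lists hold no reads, so a region without a peak cannot be given a level, and 2 libraries a subset limit every test.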
